A study of Homo sapiens with 3 samples.

Results

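On the short arm of chromosome 12 in NTERA2 cells, sites of the long non-coding RNA SRA were sparser and sites of the RNA helicase p68 were denser than on the long arm, and the sites of both lists were wide. The arm was taken as all sites of chromosome 12 whose midpoint lay below position 35800000 of hg19. It held 712 of the 22030 sites in the lists, namely 62 of 7899 SRA sites (0.785%) and 650 of 14131 p68 sites (4.60%). NTERA2 is an established human embryonal carcinoma line with properties of pluripotent stem cells, and the labels name no treatment or genetic change. SRA was mapped by ChIRP-seq, in which biotinylated oligonucleotides recover an RNA with the chromatin bound to it, and p68 was mapped by ChIP-seq with an antibody. The methods state 3 biological replicates for each assay, but each assay has 1 deposited list in which the replicates were already intersected. The lists give chromosome, start and end, with no score or read count, so neither the depth behind a site nor the variation among replicates is known.

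SRA is a non-coding RNA that was described as a coactivator of steroid receptors and that works together with proteins able to bind DNA. p68, the product of DDX5, is a DEAD box helicase that binds SRA and takes part in transcription and RNA processing. The short arm of chromosome 12 carries NANOG, DPPA3 and GDF3, which are genes of the pluripotent state, and CCND2, a cyclin of the cell cycle. Gain of this arm is a hallmark of germ cell tumours, the class of tumour from which embryonal carcinoma lines come. The copy number of the arm was not measured in the files used here. Genes are not assigned to single sites, for want of a gene annotation in the coordinates of the lists.

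ChIRP recovers what its probes hybridize to, and for that reason the first, the middle and the last of the 29 SRA probes are shown, in probe order. Each is 20 nt long and is written 5′ to 3′. No base is marked in capitals.

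SRA_1: ggctgatgtcatcacatacc

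SRA_15: tctctgatgcggggactctg

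SRA_29: tgaggcagcagtttgtttgg

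The short arm was rich in p68 sites. It held 18.2 p68 sites per Mb, against 7.41 per Mb on the long arm, so that 47.3% of all p68 sites of the chromosome lay on its shorter arm. SRA showed the opposite order, with 1.73 sites per Mb on the short arm and 3.97 per Mb on the long arm. There were 10.5 p68 sites for each SRA site on the short arm, 1.86 on the long arm and 1.71 on the other chromosomes. The short arm was taken as 35.8 Mb long, and the long arm as the 97.9 Mb from the boundary to the end of the last site. No site lay within 1 Mb of the boundary. The SRA sites closest to it were chr12:34497513-34500773 (3261 bp) on the short arm and chr12:42874169-42876810 (2642 bp) on the long arm, and the closest p68 sites were chr12:34414187-34416838 (2652 bp) and chr12:38450474-38452261 (1788 bp).

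Neighbouring sites are not independent, and therefore sites of a list with a gap of at most 10 kb were joined into groups for the tests. The 650 p68 sites formed 333 groups, which is 9.30 groups per Mb, against 564 groups and 5.76 per Mb on the long arm. The ratio was 1.61 (95% exact interval 1.41 to 1.85, adjusted p = 4.07e-11, two-sided exact binomial test against arm length). The 62 SRA sites formed 45 groups, or 1.26 per Mb, against 316 groups and 3.23 per Mb, a ratio of 0.389 (0.278 to 0.533, adjusted p = 1.27e-10, same exact test). The number of SRA groups per p68 group was 0.135 on the short arm and 0.560 on the long arm (adjusted p = 6.12e-19, two-sided Fisher's exact test). On all other chromosomes it was 0.521 (adjusted p = 5.48e-22, same exact test). The p-values were adjusted over the 16 comparisons made. They cover counting error only, since each assay has 1 list. The higher density of p68 depended on how sites were joined: with sites joined within 50 kb the ratio was 1.21 (adjusted p = 0.105, exact test), and with single sites it was 2.45.

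Sites of both lists were concentrated in stretches of a few Mb. In windows of 1 Mb the number of p68 sites ran from 0 to 66 with a median of 9.5, and 13 of the 36 windows held at least 20. The window from 6 to 7 Mb held 66 p68 sites, that from 32 to 33 Mb held 63 and that from 8 to 9 Mb held 58. Ordered by number over the 2086 windows of the whole list that hold a p68 site, they came 9th, 10th and 13th. These 3 windows carried 28.8% of the p68 sites of the arm. The long arm reached at most 40 p68 sites in a window, with a median of 3.5 over 98 windows.

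SRA sites lay mainly towards the end of the arm. The first 10 Mb held 44 of the 62, followed by 7 between 10 and 20 Mb, 3 between 20 and 30 Mb and 8 in the remaining 5.8 Mb. The fullest windows were those from 0 to 1 Mb with 14 SRA sites, from 8 to 9 Mb with 9 and from 6 to 7 Mb with 6. In contrast to p68, the first of them came only 157th of the 1036 windows of the whole list with an SRA site. No SRA site was listed in 16 of the 36 windows, and those windows held 186 p68 sites, or 28.6% of the p68 sites of the arm. On the long arm the 30 windows without SRA held 7.31% of the p68 sites. The longest run without SRA on the short arm covered 5 windows from 23 to 28 Mb and held 52 p68 sites. Between 20 and 30 Mb there were 76 p68 sites beside the 3 SRA sites, and from 30 Mb to the boundary 126 beside 8. Over the 36 windows the counts of SRA and p68 had a Pearson correlation of 0.56 and a Spearman correlation of 0.48, and over the 98 windows of the long arm these were 0.66 and 0.66. These are descriptions, because neighbouring windows share the same stretch of chromosome.

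**Figure D1:**
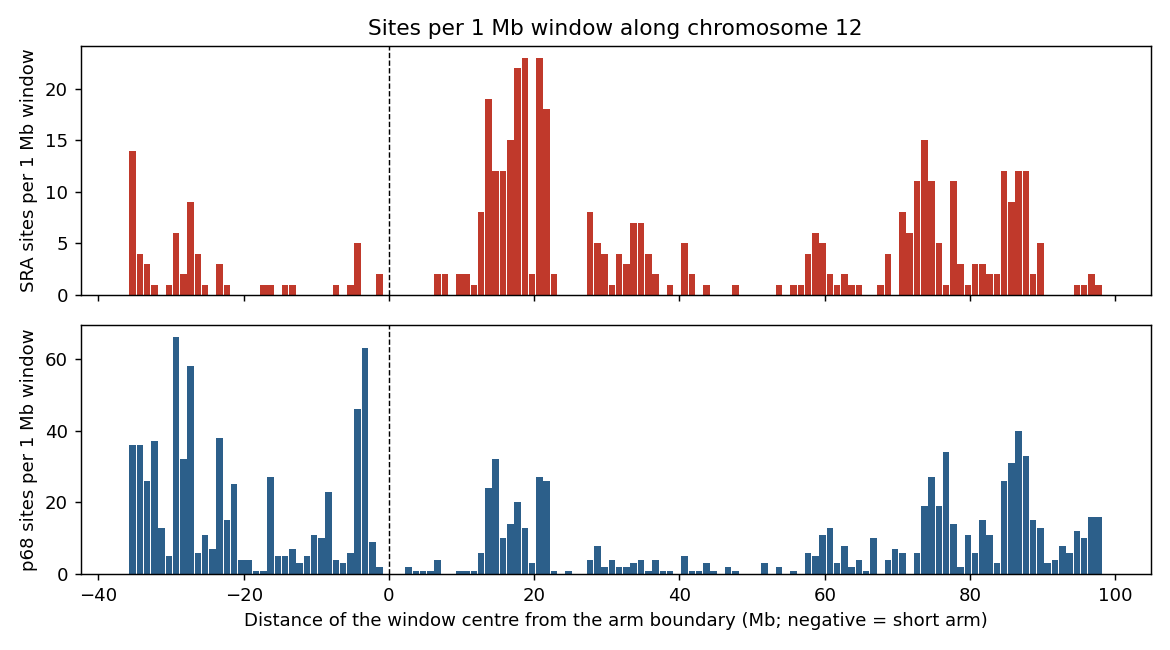
Number of SRA sites (upper panel) and p68 sites (lower panel) in each 1 Mb window of chromosome 12, plotted against the distance of the window centre from the arm boundary in Mb, with the short arm at negative values. The highest p68 bars, 66, 63 and 58, are on the short arm, whereas the highest SRA bars, 23, are on the long arm.

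The most marked feature of the arm was the width of its sites. SRA sites on the short arm ran from 953 to 10274 bp, with a median of 4478 bp and quartiles of 2470 and 6721 bp. On the long arm the median was 2040 bp (quartiles 1614 and 2710 bp), and on the other chromosomes it was 2230 bp. For p68 the short arm ran from 739 to 12526 bp, with a median of 2462 bp and quartiles of 1621 and 3614 bp. The long arm had a p68 median of 1115 bp (quartiles 929 and 1477 bp), and the other chromosomes 1162 bp. The ratio of the medians of the arms was 2.20 for SRA and 2.21 for p68.

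Width was tested by counting sites above the median width of the whole list, which by its construction 50% of the sites of either list exceed. On the short arm 51 of 62 SRA sites (82.3%, 95% Wilson interval 71.0 to 89.8%) were above the median, against 164 of 389 (42.2%, 37.4 to 47.1%) on the long arm. The difference had an adjusted p of 5.10e-09 in Fisher's exact test, and against the other chromosomes, where 50.1% of SRA sites were above, it had an adjusted p of 4.19e-07. For p68, 602 of 650 sites (92.6%, 90.3 to 94.4%) were above the median, against 321 of 725 (44.3%, 40.7 to 47.9%) on the long arm (adjusted p = 2.20e-88, Fisher's exact test) and 48.1% on the other chromosomes (adjusted p = 1.23e-125, same exact test). Sites entered these tests singly although neighbouring sites are not independent, so the size of these p-values does not measure strength of evidence. With only the widest site of each group counted, the calls were the same, although neighbours were then no longer counted separately. Taking the widest site favours a region whose groups hold more sites.

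Sites over 5 kb were also more common on the short arm. Over the whole lists, 8.33% of SRA sites and 1.08% of p68 sites were over 5 kb. Such sites made up 28 of the 62 SRA sites of the short arm (45.2%) and 9 of 389 on the long arm (2.31%). Of the p68 sites, 73 of 650 (11.2%) were over 5 kb on the short arm, and 0 of 725 on the long arm, which allows a share of up to 0.414%. The widest p68 site of the long arm measured 3877 bp. Of the 100 widest p68 sites of the genome, 50 lay on the short arm of chromosome 12, as did 15 of the 20 widest. Of the 100 widest SRA sites, 9 lay on the arm, the widest of them in place 22 of the list. Set against the share of each list that lay on the arm (0.785% of SRA and 4.60% of p68), its part of the 100 widest sites was 11.5 times as large for SRA and 10.9 times as large for p68. These ratios are descriptions and were not tested.

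**Figure D2:**
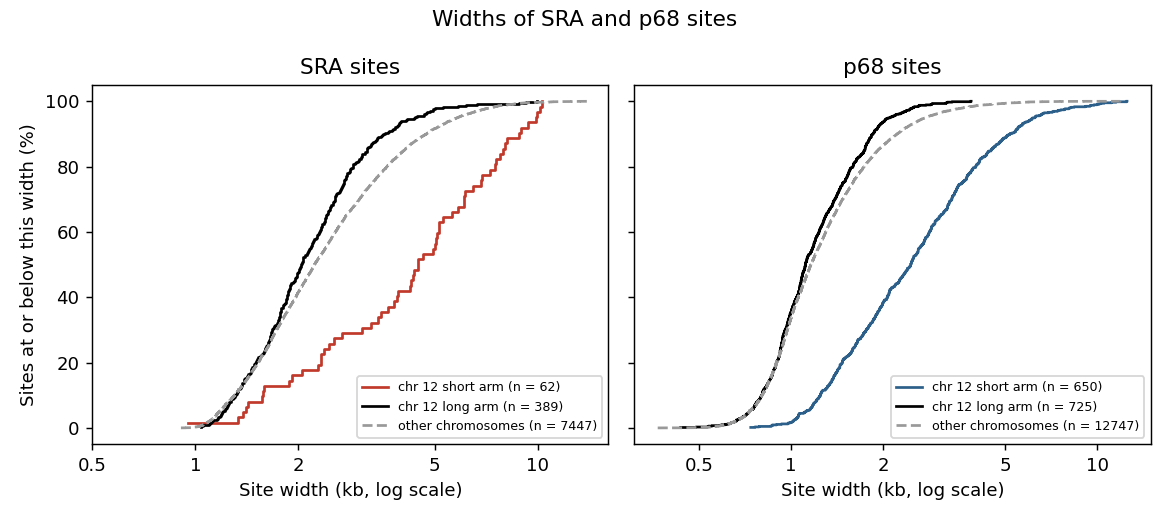
Cumulative percent of sites at or below each width (log scale, in kb) for SRA (left) and p68 (right), on the short arm of chromosome 12, on its long arm and on the other chromosomes. The curves of the short arm lie to the right of the others, with medians of 4478 bp for SRA and 2462 bp for p68.

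The 5 widest p68 sites were chr12:32445823-32458348 (12526 bp), chr12:31523734-31535269 (11536 bp), chr12:7820866-7832034 (11169 bp), chr12:31555925-31566468 (10544 bp) and chr12:7914494-7924792 (10299 bp). All lay in the stretches around 8 Mb and 32 Mb that were also dense in p68, and none had an SRA site within 500 bp. The distance to the nearest SRA site was shortest, 3112 bp, for the second of them and longest, 515963 bp, for the first. The 5 widest SRA sites were chr12:12984277-12994550 (10274 bp), chr12:28173053-28183183 (10131 bp), chr12:12936365-12946321 (9957 bp), chr12:1735845-1745748 (9904 bp) and chr12:7027840-7037188 (9349 bp). Of these 5, 4 overlapped a p68 site, the exception being the one near 28 Mb with the nearest p68 site 49147 bp away. Over the whole arm, 30.6% of the 62 SRA sites and 3.85% of the 650 p68 sites had a site of the other list within 500 bp. Over the whole lists these shares were 11.6% and 6.55%. The shares of SRA and of p68 sites differ in part because the lists differ in size on the arm.

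Wide p68 sites were not limited to the dense stretches. In short-arm windows with under 10 p68 sites the median width was 1789 bp over 77 sites, and in windows with at least 20 it was 2606 bp over 513 sites. The long arm had 1116 bp over 163 sites in windows with under 10 and 1113 bp over 320 sites in windows with at least 20. Thus the sparse windows of the short arm held wider p68 sites than the dense windows of the long arm. Over the 27 short-arm windows with at least 5 p68 sites the median width ran from 1499 to 3487 bp, and 19 of them were above the highest value of the 41 such windows on the long arm, 1832 bp. On the short arm SRA showed no such rise with density, with 5025 bp over 48 sites in windows with under 10 SRA sites and 3954 bp in the window with 14. On the other chromosomes both lists showed a rise between windows with under 10 and with at least 20 sites. The medians there were 1029 and 1382 bp for p68 and 2034 and 2432 bp for SRA.

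**Figure D3:**
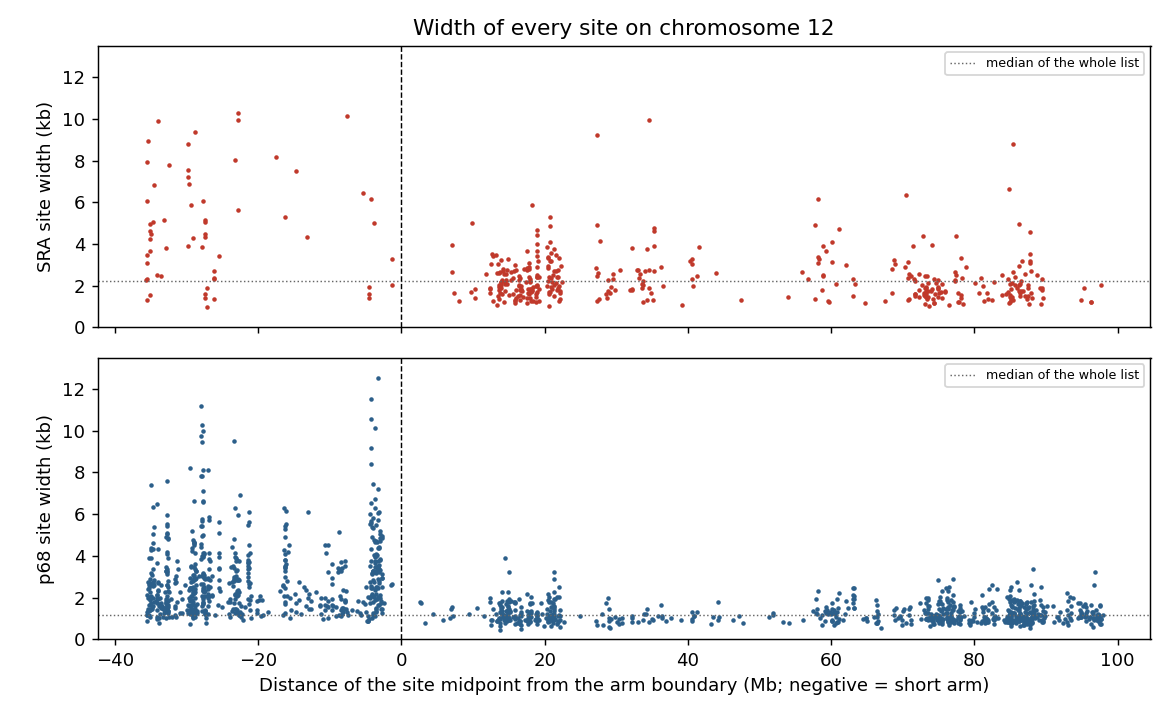
Width in kb of every SRA site (upper panel) and p68 site (lower panel) of chromosome 12 against the distance of its midpoint from the arm boundary in Mb, with the short arm at negative values and a dotted line at the median of the whole list. Wide p68 sites occur along the short arm, and 0 p68 sites of the long arm exceed 5 kb.

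Number and width together set how much of the arm was covered. The p68 sites covered 1890 kb of the short arm (5.28%) and 907 kb of the long arm (0.926%), a ratio of 5.70. For SRA the wide sites made up for their low number, with 300.3 kb covered on the short arm (0.839%) and 904 kb on the long arm (0.923%), a ratio of 0.908.

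The p68 groups of the short arm held at least 2 sites more often than those of the long arm. Joining at a fixed gap makes such groups more frequent where sites are denser or wider, as they were here. The comparison therefore cannot separate clustering from density and width. Over the whole list 17.9% of p68 groups held at least 2 sites. On the short arm this was so for 118 of 333 groups (35.4%, 95% Wilson interval 30.5 to 40.7%), against 107 of 564 (18.97%, 15.9 to 22.4%) on the long arm (adjusted p = 1.34e-07, Fisher's exact test) and 17.3% on the other chromosomes (adjusted p = 1.86e-14, same exact test). When sites were joined within 50 kb, the shares of the arms were 48.5% and 41.2% (adjusted p = 0.193, exact test). In all, 66.9% of short-arm p68 sites were in a group of at least 2, against 37.0% on the long arm and 37.9% over the whole list. On the short arm 23 groups of 5 or more held 197 of the 650 p68 sites. The long arm had 5 such groups with 29 of 725 sites, and the whole list 163 with 1221 of 14131. Grouped p68 sites were also wider than single ones, with medians of 2749 and 1879 bp on the short arm, whereas on the long arm both medians were near 1115 bp. The other chromosomes showed the same order, with 1335 bp in groups and 1091 bp for single sites.

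The group with the most p68 sites held 17 between chr12:3000529-3101577, a stretch of 101 kb in which sites were 1408 to 7603 bp wide. It held no SRA site. Of 3 groups with 14 p68 sites, the longest was chr12:7805092-7924792, which had a median width of 5188 bp and contained 2 of the 5 widest p68 sites. In this group 2 p68 sites overlapped an SRA site. The next was chr12:31716317-31803220, with a median width of 3007 bp and no SRA site.

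SRA sites were mostly single on the short arm. Over the whole list 24.8% of SRA groups held at least 2 sites, against 9 of 45 (20%, 95% Wilson interval 10.9 to 33.8%) on the short arm and 57 of 316 (18.0%, 14.2 to 22.7%) on the long arm. The odds ratio was 1.14 (95% interval 0.455 to 2.58, adjusted p = 0.837, Fisher's exact test), which leaves a difference in either direction possible. On the other chromosomes 25.2% of SRA groups held at least 2 sites (adjusted p = 0.526, same exact test). With sites joined within 2 kb the share was 18.0% on the short arm and 7.20% on the long arm (adjusted p = 0.0288, exact test). The group with the most SRA sites held 5 at chr12:8367307-8398215, over 30.9 kb, and 3 of the 5 had a p68 site within 500 bp. Next in length were groups of 3 at chr12:6011960-6037805, with sites of 3909 to 8806 bp and p68 at 1 of them, and at chr12:9600386-9617997, with sites of 1378 to 2379 bp and no p68. Groups of 3 numbered 5, groups of 2 numbered 3, and the other 36 SRA sites stood alone. In contrast to p68, single SRA sites of the short arm were the wider ones, with a median of 5441 bp against 3572 bp in groups. This order was not seen elsewhere. The medians of single and grouped SRA sites were 2026 and 2056 bp on the long arm and 2142 and 2353 bp on the other chromosomes. These differences were not tested.

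SRA sites of the short arm had a p68 site nearby more often than elsewhere. A p68 site was within 500 bp of the edges of 19 of the 62 SRA sites, which is 30.6% (95% Wilson interval 20.6 to 43.0%), while 11.6% of all SRA sites had one. On the long arm it was 37 of 389 (9.51%, 6.98 to 12.8%). Counted by groups, 16 of 45 SRA groups (35.6%, 23.2 to 50.2%) had p68, against 35 of 316 (11.1%, 8.07 to 15.0%) on the long arm (adjusted p = 0.000117, Fisher's exact test) and 13.9% on the other chromosomes (adjusted p = 0.000332, same exact test). The short arm also had wider sites of both lists and denser p68 sites, and their part in this difference was not tested. When every site was cut to its central 1 kb, the shares were 13.3% and 6.01% (adjusted p = 0.142, exact test), and with midpoints at most 500 bp apart they were 1 of 45 groups and 0 of 316 (adjusted p = 0.181, exact test).

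Within the arm, the SRA sites with p68 were among the wider ones. The 19 SRA sites with p68 were all wider than the median of the whole SRA list, as were 51 of all 62 SRA sites of the arm. The median width of the 19 was 5032 bp, against 3790 bp for the 43 without p68. Of the 11 SRA sites at or below the median of the list, 0 had p68, which at this number allows a share of up to 27.3%. Among SRA sites above that median, 37.3% had p68 on the short arm and 8.54% on the long arm, where 10.2% of the narrower SRA sites had it. Over the whole list 13.9% of the wider and 9.37% of the narrower SRA sites had p68. On the p68 side the order of the medians was the other way, with 2101 bp for the 25 short-arm p68 sites with SRA and 2475 bp for the 625 without. None of these differences was tested. By position, p68 was present at 12 of the 44 SRA sites in the first 10 Mb (27.3%), at 5 of 7 between 10 and 20 Mb (71.4%), at 0 of 3 between 20 and 30 Mb and at 2 of 8 beyond 30 Mb.

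**Figure D4:**
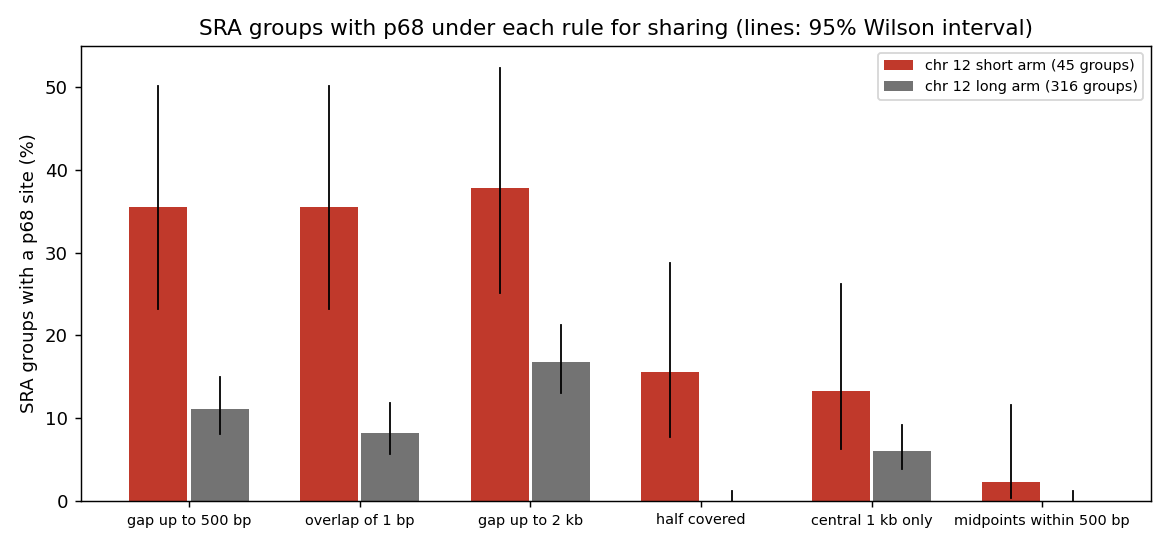
Percent of SRA groups with a p68 site on the short arm (45 groups) and the long arm (316 groups) of chromosome 12 under 6 rules for sharing, with lines for 95% Wilson intervals. The short arm is at 35.6% and the long arm at 11.1% for a gap of up to 500 bp, and the intervals overlap when only the central 1 kb of each site is used (13.3% and 6.01%).

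Seen from p68, sharing on the arm was not called different, and its order depended on the rule. An SRA site was within 500 bp of 25 of the 650 p68 sites (3.85%, 95% Wilson interval 2.62 to 5.62%), beside 6.55% of all p68 sites and 4.97% of those on the long arm. By groups, where 7.34% of the whole list had SRA, the shares were 4.80% and 6.21% on the arms (odds ratio 0.763, 95% interval 0.388 to 1.44, adjusted p = 0.521, Fisher's exact test), and 7.50% on the other chromosomes (adjusted p = 0.0859, same exact test). With a gap of up to 2 kb the shares of the arms were 5.11% and 9.40% (adjusted p = 0.0235, exact test). The order turned when an overlap of 1 bp was required, with 4.80% and 4.61%, and when at least 50% of the p68 site had to be covered, with 3.30% and 0.887% (adjusted p = 0.0192, exact test). The median distance of p68 sites to SRA was 120 kb on the short arm and 46031 bp on the long arm. Over 50 kb away were 465 of 650 p68 sites on the short arm and 348 of 725 on the long arm. Over the whole list it was 8242 of 14131, counting p68 sites on chromosomes without SRA. These distances were not tested.

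Where both were present, they overlapped over longer stretches than on the long arm. The 19 SRA sites formed 26 pairs with 25 p68 sites, and 25 of the pairs overlapped, by 231 to 3858 bp with a median of 1269 bp. The long arm had 37 pairs, of which 28 overlapped, with a median of 274 bp. The overlap took up 63.0% of the p68 site in the median short-arm pair and 23.7% in the median long-arm pair. The p68 site lay wholly inside the SRA site in 7 short-arm pairs and 2 long-arm pairs. On the other chromosomes 720 of 942 pairs overlapped, with a median of 458 bp and of 34.4% of the p68 site. In 95 of those pairs the p68 site lay wholly inside. These values were not tested, because the length of an overlap is bounded by the widths of the sites.

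The longest overlap, 3858 bp, was between the SRA site chr12:31514483-31520621 and the p68 site chr12:31516764-31522332. It lay beside the second widest p68 site of the arm, which starts at 31523734. In the group of 5 SRA sites, the SRA site chr12:8386907-8391258 contained the whole p68 site chr12:8388334-8391206 of 2873 bp. Near the end of the arm, the SRA site chr12:687394-691638 contained chr12:688255-690851 (2597 bp), and chr12:31924843-31929859 contained chr12:31926859-31928874 (2016 bp). In the pairs that followed, the SRA site chr12:19553520-19558792 overlapped chr12:19552717-19555177 by 1658 bp, and chr12:7027840-7037188, one of the 5 widest SRA sites, contained chr12:7029383-7030971 (1589 bp). In 7 of the 19 SRA sites a second p68 site was paired with the same SRA site. At least 2 p68 sites were paired with 0 of 37 such SRA sites on the long arm and with 80 of 861 on the other chromosomes.

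Of the 43 short-arm SRA sites without p68, 17 (39.5%) had a p68 site within 10 kb, and their median distance to the nearest one was 17625 bp. For the 352 such sites of the long arm these values were 26.4% and 25215 bp. Over all 62 SRA sites of the short arm, the shared ones included, the median distance was 6886 bp, against 19822 bp on the long arm. These distances were not tested. In all, 8 of the 62 SRA sites of the short arm were over 100 kb from p68, beside 67 of 389 on the long arm and 1382 of 7899 over the whole list. The most distant SRA site of the short arm was 504668 bp away.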

How the data were processed

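SRA ChIRP-seq and p68 ChIP-seq of NTERA2 cells were analysed from 1 deposited list of sites each, and input chromatin was not used here. The reads, of 50 bp and from 1 end, had been placed on hg19 by the authors, who dropped duplicates and mapping qualities below 20 (SAMtools). Peak calling by MACS 1.4.2 used p-value limits of 1e-04 (SRA) and 1e-05 (p68). Peaks of 3 replicates were intersected (ChIPpeakAnno), and peaks of LacZ probes were removed from those of SRA (bedtools). The aligner is not given in the methods, and the labels name CASAVA 1.8.2. The deposited values are positions in bp, without score, count or signal. A stretch is therefore also empty where a site was missing from 1 replicate, the thresholds of the lists differ, and depth is unknown.

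Printed positions start at 1. Windows of 1 Mb were filled by midpoint. Sharing was a gap of at most 500 bp between edges, the distance in the methods, which do not name the points measured. Under this rule 11.6% of all SRA sites had p68, which is lower than the share the paper reports. Groups were sites joined within 10 kb. Intervals and exact tests cover counting error only, and p-values were adjusted over 16 comparisons by Benjamini-Hochberg. A count of 0 was read as up to 3. Named singly were the 5 widest sites per list, the 3 groups with the most sites (ties by length) and the 6 pairs with the longest overlap. Members, lists and tests were chosen with earlier results of these data known. The script was tested on simulated data, where the error rate was counted for sites placed at random with a fixed width, without the tests of width. The listed sites lie close together and vary in width, so that rate need not hold for them. Python 3.11.15, numpy 2.4.6, scipy 1.17.1, pandas 2.3.3 and matplotlib 3.10.9 were used.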

Additional observations from a re-analysis of the deposited data

How the results depend on the processing

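Of 141 alternative values, 115 kept their direction and their side of the threshold or stayed within their interval. Some of these could not have come out otherwise. Moving the boundary 1 Mb towards the short-arm end left the counts at 62 SRA and 650 p68 sites. Moving it 3 Mb the other way left 62 SRA sites and gave 652 p68 sites. The alternatives with sites cut to 1 kb, with joining by midpoints and without chromosome 1 were added after the data were seen. No paired analysis was possible because each assay has a single merged list, and for the same reason no replicate was left out. Depth is unknown. The tests of width, of SRA groups per Mb and of SRA groups per p68 group kept their calls in all alternatives run. Joining within 50 kb ended the calls for p68 groups per Mb (1.21) and for p68 groups of 2 or more sites against the long arm (7.31 percentage points), where fewer groups are compared. The difference in SRA groups with p68, 24.5 points against the long arm and 21.6 against other chromosomes, was 2.22 and 1.14 points with midpoints at most 500 bp apart and 7.32 and 6.07 points with sites cut to 1 kb, and was then no longer called. The difference in p68 groups with SRA against the long arm, -1.40 points, was -4.29 points at a gap of 2 kb (called), 0.19 points for overlap, 2.42 points with 50% covered (called), 0.30 points by midpoints and 0.23 points with joining within 50 kb. Against other chromosomes it was -2.69 points, became called at a gap of 2 kb (-4.85), joining within 2 kb (-2.55) and single sites (-2.94), and changed sign with 50% covered (1.05) and joining within 50 kb (2.32). The difference in SRA groups of 2 or more sites was 10.8 points against the long arm with joining within 2 kb (called) and -14.3 within 50 kb. Against other chromosomes it was 4.0 and -20.4 points (called). The share of SRA sites with p68 was 11.3% with 50% covered and 1.61% by midpoints, and that of p68 sites with SRA 2.15% and 0.15%. SRA was in 72.2% of windows of 2 Mb and 37.5% of windows of 500 kb. Beyond what a rule itself changes, the cause was not tested.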

Other observations

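The arm was also set beside all other stretches of the same length, 35.8 Mb, counted from the start of each of the other chromosomes. Of 70 such stretches, 1 held more p68 sites than the 650 of the arm, namely the first stretch of chromosome 1 with 780, and the median was 87.5. For SRA, 23 stretches held more than the 62 sites of the arm and 46 held fewer, with a median of 14.5, so that the arm was sparse in SRA against the long arm but not against most of these stretches. The median p68 width of the arm, 2462 bp, was above that of all 63 stretches with at least 20 p68 sites, which ran from 850 to 1659 bp. The median SRA width, 4478 bp, was above that of all 34 stretches with at least 20 SRA sites, which ran from 1573 to 3091 bp. The number of SRA sites per p68 site, 0.0954 on the arm, was lower in 30 of the 69 stretches with a p68 site and higher in 39. Among the 10 stretches with at least 300 p68 sites it was lower in 1. These stretches differ in gene content and in gaps of the assembly, and no test was made.

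The midpoints of p68 sites were also counted by their distance from SRA sites. Inside SRA sites of the short arm there were 14 p68 midpoints, or 46.6 per Mb (95% exact interval 25.5 to 78.2), and 4 in the first 500 bp outside, or 73.4 per Mb (20.01 to 188). From 10 to 50 kb outside, p68 midpoints numbered 43.4 per Mb (36.2 to 51.6), and this interval overlaps both of the others. Beyond 50 kb there were 14.9 per Mb (13.6 to 16.3). On the long arm there were 5 midpoints inside, or 5.53 per Mb (1.80 to 12.9), against 37.2 per Mb (20.3 to 62.4) in the first 500 bp outside, 14.9 per Mb (13.1 to 16.9) from 10 to 50 kb and 4.69 per Mb (4.21 to 5.21) beyond 50 kb. These intervals cover counting error only. The difference between the arms was not tested.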
